A study of Rattus norvegicus with 86 samples.

Results

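*Sirt5* (ENSRNOG00000017866) was followed as a single gene among the 17250 genes of the prelimbic cortex (PL) expression table. It was taken by its Ensembl identifier, without a threshold on its values. The animals were outbred Heterogeneous Stock (HS) rats, a population derived from inbred founder strains. They lived in groups and had received no drug and no behavioral test. One polyA RNA library was made per rat from PL tissue dissected on both sides of the brain. Of 86 PL samples, 6 had been removed by the authors' filters, leaving 80 rats (40 males and 40 females). The labels sort them by rat batch. Batch 2 had 14 rats (3 females, 11 males), batch 3 had 23 (13 females, 10 males), batch 4 had 26 (15 females, 11 males), batch 6 had 16 (8 females, 8 males) and batch 5 was a single female. No rat carried a treatment or a targeted mutation, and the sources used here do not say what a rat batch shared.

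Sirtuins are NAD-dependent enzymes that take acyl groups off lysine side chains. Sirt5 sits mainly in the mitochondrial matrix, where it removes the acidic groups succinyl, malonyl and glutaryl and has only weak deacetylase activity. Its known targets include enzymes of the tricarboxylic acid cycle, fatty acid oxidation, ketone body synthesis and the urea cycle, and because it consumes NAD its activity is tied to the metabolic state of the cell. The data give the abundance of its mRNA in whole tissue, not the amount or activity of the protein.

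*Sirt5* was well expressed in every rat and varied little. The deposited value, the log2 of the adjusted read count plus 1, ranged from 10.75 over a median of 10.94 to 11.30, with a mean of 10.96 ± 0.12 (SD, n = 80). In adjusted counts the lowest rat had 1723, the median was 1962 and the highest rat had 2528. The highest value was thus 1.47-fold the lowest. The lowest rat was a female of batch 4 and the highest a female of batch 3. In bulk tissue, fewer cells that express the gene and less of its RNA per cell cannot be told apart.

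The spread of *Sirt5* was on the low side for a gene of its level. Among the 1500 genes whose mean lay within 0.5 log2 units of its own, the median SD was 0.15, and 27.8% of them had a smaller SD than *Sirt5*. If the adjusted counts were reads, counting error alone at 1990 counts would give an SD of 0.032 on the log2 scale. Because the counts had been adjusted before deposit, that figure is approximate.

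**Figure D1:**
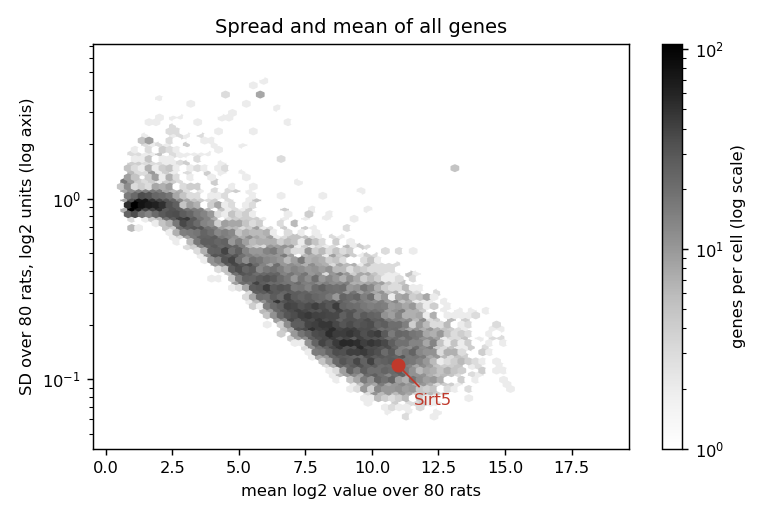
Mean log2 value (x axis) and SD over the 80 rats in log2 units (y axis, log scale) of all 17250 genes, with darker cells holding more genes. *Sirt5*, in red, lies at a mean of 10.96 and an SD of 0.12, in the lower part of the cloud at that mean.

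Expression of *Sirt5* differed between the rat batches, with higher values in batches 2 and 3 than in batches 4 and 6. In batch 2 the 14 rats ranged from 10.77 over a median of 11.05 to 11.22, with a mean of 11.04 ± 0.12 (SD). In batch 3 the 23 rats ranged from 10.79 over a median of 11.04 to 11.30, with a mean of 11.04 ± 0.12 (SD). The lowest rat of batch 2 was a female. Above the median of all 80 rats lay 11 of the 14 values from batch 2 and 19 of the 23 from batch 3. In batch 4 the 26 rats ranged from 10.75 over a median of 10.89 to 11.004, with a mean of 10.88 ± 0.063 (SD). In batch 6 the 16 rats ranged from 10.76 over a median of 10.88 to 11.04, with a mean of 10.90 ± 0.076 (SD). Above the median of all 80 rats lay 4 of the 26 values from batch 4 and 6 of the 16 from batch 6. The single rat of batch 5 had a value of 10.94 and entered no comparison between batches.

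**Figure D2:**
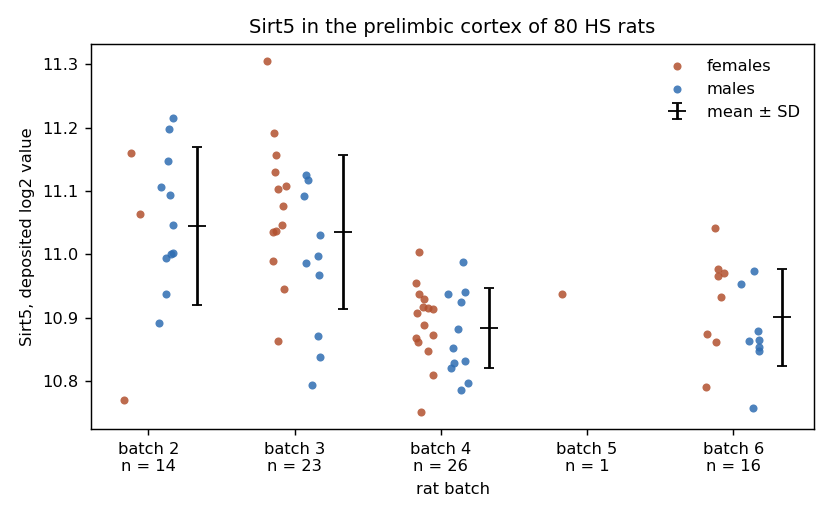
Deposited log2 value of *Sirt5* (y axis) in each rat by rat batch (x axis), with females in red, males in blue and black marks for the mean ± SD of each batch. The rats of batches 2 and 3 reach 11.22 and 11.30, and those of batches 4 and 6 end at 11.004 and 11.04.

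The batch means of *Sirt5* differed in the test, which does not measure the spread of single rats. With sex as a covariate, limma's moderated F-test over batches 2, 3, 4 and 6 gave F = 16.2 (p = 2.69e-08, adjusted p = 1.76e-07 over all genes). Such a difference was common, since 62.4% of all genes passed the same test. Over the rats of batches 2, 3, 4 and 6, batch accounted for 40.5% of the variance of *Sirt5* that sex left. The median of this share was 16.3% over all genes, and 85.8% of genes had a smaller one. With 20 principal components of the expression matrix added to the fit, the adjusted p of the F-test was 0.985. These components were computed from values that hold the batch differences, so that fit cannot decide whether the batches differ.

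*Sirt5* was lower in batch 4 than in batch 3 by a log2 difference of -0.15 (SE 0.028, limma adjusted p = 3.5e-06), a fold of 0.900, in a contrast that called 51.7% of all genes. It was lower in batch 4 than in batch 2 by a log2 difference of -0.18 (SE 0.033, adjusted p = 1.35e-05), a fold of 0.885, where 37.2% of genes were called. Batch 6 lay below batch 2 by -0.16 (SE 0.036, adjusted p = 0.000366, 38.3% of genes called) and below batch 3 by -0.13 (SE 0.032, adjusted p = 0.00034, 49.9% of genes called). Within each of the 2 pairs no difference of *Sirt5* passed the test. The log2 difference was -0.02 (SE 0.034, adjusted p = 0.731) between batches 3 and 2, where 5.7% of genes were called, and 0.02 (SE 0.031, adjusted p = 0.773) between batches 6 and 4, where 6.23% were called. The order of the batch means, 2, 3, 6 and 4, therefore had only 1 step that passed the test, that from batch 3 to batch 6.

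The batches overlapped in part. Of the 37 rats of batches 2 and 3, 19 lay above the highest of the 42 rats of batches 4 and 6, and 0 of those 42 lay above the median of the 37. At the lower end 2 of the 42 rats lay below the lowest of the 37. The mean was 11.04 in batches 2 and 3 together and 10.89 in batches 4 and 6 together. This grouping of the batches was made after their values were seen and is given as a description.

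The *Sirt5* values also lay farther apart in batches 2 and 3. After the batch and sex means had been removed, the SD was 0.122 in batches 2 and 3 and 0.067 in batches 4 and 6, a ratio of 1.81. Among the 13025 genes with a mean log2 value of at least 5 the median ratio was 0.983, and 97.2% of them had a smaller ratio than *Sirt5*. This comparison too was chosen after the values were seen and was not tested.

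Males and females did not differ detectably in *Sirt5*. The mean was 10.95 ± 0.12 in 40 males and 10.97 ± 0.12 in 40 females (SD). With rat batch in the fit, the log2 difference of males from females was -0.04 (SE 0.023, limma p = 0.0855, adjusted p = 0.719), in a comparison that called 0.365% of all genes. Batch by batch, two-sided permutation tests were run on the same difference. It was 0.059 among the rats of batch 2 (permutation p = 0.485), where 3 rats were female, and -0.094 for batch 3 (permutation p = 0.0629). For batch 4 the difference was -0.020 with a permutation p of 0.432, and for batch 6 it was -0.052 with a permutation p of 0.161. After adjustment over the 4 batches the smallest p was 0.252. The male mean lay below the female mean in 3 of the 4 batches. The change of the sex difference with batch did not pass the test for *Sirt5* (limma, interaction F = 1.52, p = 0.216, adjusted p = 0.9999).

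A large part of the transcriptome varied together with *Sirt5* from rat to rat. Each other gene was fitted on the *Sirt5* value with sex and rat batch as covariates, so that differences between batches did not enter. In limma, 2983 genes had a positive slope (17.3% of 17249) and 3091 a negative slope (17.9%) at an adjusted p under 0.05. The correlations of the residuals on sex and batch were centred on a median r of -0.003 over all genes, with 5% of genes below -0.49 and 5% above 0.46. Genes are not independent replicates, and these counts describe how widely *Sirt5* shared its variation.

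Far fewer genes were related to *Sirt5* once the first principal component (PC) of the expression matrix was in the fit. This component, computed without *Sirt5*, held 14.1% of the variance. After sex and batch had been removed, *Sirt5* correlated with the score on this component with Pearson's r = 0.623 and Spearman's rho = 0.539 (permutation p = 1e-05 for both, the lower limit with 100000 permutations, and 2e-05 after adjustment over 2 components). Without the 2 rats farthest from the median of *Sirt5*, r was 0.575. Taken one batch at a time, r was 0.823 (batch 2), 0.746 (batch 3), 0.287 (batch 4) and 0.314 (batch 6). *Sirt5* was not alone in this, since the median size of r with the component was 0.327 over genes with a mean log2 value of at least 5 and 87.4% of these genes had a smaller one than *Sirt5*. On the second component r was -0.082 (permutation p = 0.431). With the first component added to the fit, 117 genes had a positive slope on *Sirt5* (0.678%) and 157 a negative one (0.91%). What the component stands for was not tested.

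**Figure D3:**
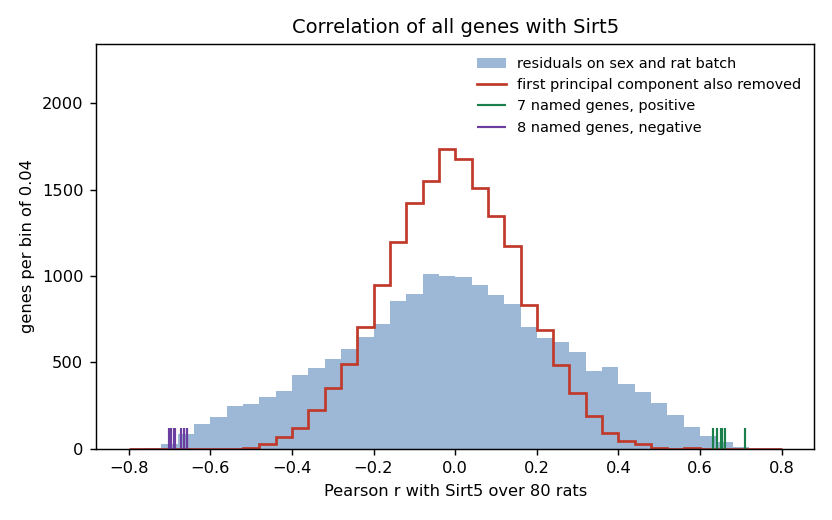
Number of genes (y axis, bins of 0.04) by their Pearson r with *Sirt5* over 80 rats (x axis), on residuals on sex and rat batch (blue) and with the first principal component also removed (red line). Green ticks mark 7 named genes of positive slope and purple ticks 8 of negative slope, and the red distribution is narrower, with an SD of r of 0.162 against 0.281.

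Genes passed the test of the slope on *Sirt5* in batches 2 and 3 but not in batches 4 and 6. Fitted within a batch, *Sirt5* had 1493 genes of positive (8.66%) and 1533 of negative slope (8.89%) in batch 2. In batch 3 there were 2063 (12%) and 2159 (12.5%). The share of genes at an unadjusted p under 0.05 in limma was 30.6% in batch 2 and 36.8% in batch 3. In batch 4 limma called 0 genes (8.08% of genes had an unadjusted p under 0.05), and in batch 6 it also called 0 (9.9% at that unadjusted level). Batch 4 held the most rats, and the *Sirt5* values of batches 4 and 6 spanned less, as given above. Whether either bears on the number of calls was not tested. A test of whether the slope itself changed with batch called 0% of genes in limma, with 1720 of 17249 at an unadjusted p under 0.05. A difference in slope between batches was therefore not shown for any gene.

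The named gene most like *Sirt5* was *Coa3*, an assembly factor of cytochrome c oxidase in the inner mitochondrial membrane. In each rat the level of *Coa3* lay between 9.22 and 9.93 on the log2 scale. Its mean ± SD was 9.62 ± 0.20 (batch 2), 9.69 ± 0.13 (batch 3), 9.50 ± 0.14 (batch 4) and 9.42 ± 0.11 (batch 6), so the means of batches 2 and 3 lay above those of batches 4 and 6 in this gene too. On the residuals the correlation with *Sirt5* was r = 0.711 and rho = 0.705 (permutation p = 1e-05 for both). *Coa3* was chosen by its slope in these same rats, so this p does not test it anew. *Coa3* rose by 1.07 log2 units (SE 0.13) per log2 unit of *Sirt5*. Within batches r was 0.888, 0.724, 0.616 and 0.598 in batches 2, 3, 4 and 6. With the first principal component in the fit r was 0.574 (limma adjusted p = 0.0015).

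The other named genes of high positive correlation included *Rpl28*, which encodes a protein of the large ribosomal subunit (r = 0.660), *LOC103690005* (r = 0.654), the vesicle tethering factor *Trappc4* (r = 0.654), *Kcnmb4*, an accessory subunit of the BK potassium channel (r = 0.651), *Atp5f1b*, the catalytic subunit of mitochondrial ATP synthase (r = 0.641), and *Bsg*, a chaperone of lactate transporters (r = 0.631). For all 8 genes chosen for a positive slope the adjusted p of the slope was between 1.57e-09 and 8.4e-08. Ribosomal protein genes such as *Rpl28* have near-identical copies in the genome, so their reads may have been split among copies and their values are uncertain. In batch 4, r with *Sirt5* was lowest in *Atp5f1b*, at 0.225, and in batch 6 lowest in *LOC103690005*, at 0.335. With the first principal component in the fit, *Coa3*, *Trappc4* and *LOC103690005* kept their call and the other 5 of the 8 did not.

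**Figure D4:**
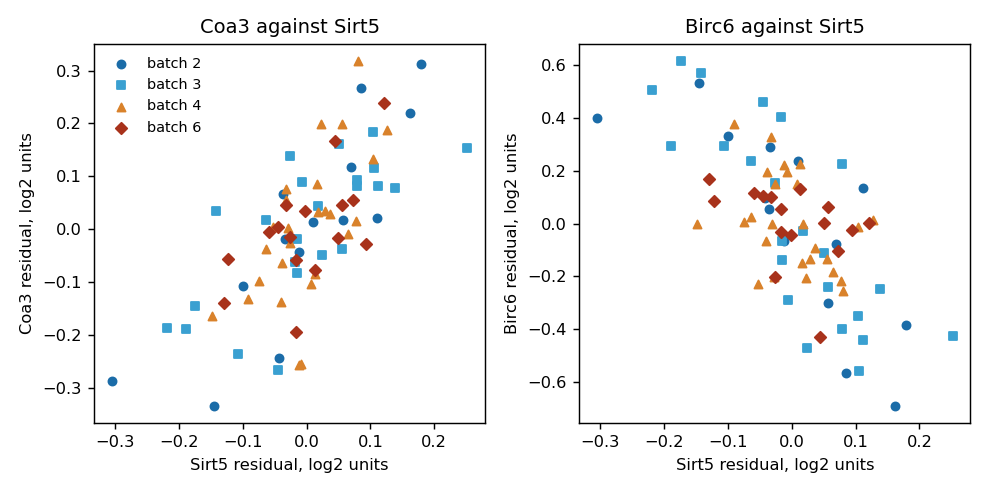
Residuals of *Coa3* (left) and *Birc6* (right) against those of *Sirt5* on sex and rat batch, in log2 units on both axes, with 1 mark per rat shaped and coloured by batch and the rat of batch 5 left out. *Coa3* rises with *Sirt5* in each batch (r = 0.711 over all rats) and *Birc6* falls (r = -0.700), and the marks of batches 2 and 3 reach farther out on the *Sirt5* axis.

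The genes of strongest negative correlation were led by *Birc6*, a large ubiquitin-conjugating enzyme that inhibits apoptosis. Its mean ± SD was 9.54 ± 0.37 (batch 2), 9.54 ± 0.38 (batch 3), 10.22 ± 0.17 (batch 4) and 10.15 ± 0.15 (batch 6), so the means of batches 4 and 6 lay above those of batches 2 and 3. On the residuals r was -0.700 and rho -0.676 (permutation p = 1e-05 for both), a p that does not test *Birc6* anew because it too was chosen by its slope. The slope was -2.08 log2 units (SE 0.24) per log2 unit of *Sirt5*. Within batches r was -0.871, -0.796, -0.348 and -0.431 in batches 2, 3, 4 and 6. With the first principal component in the fit r was -0.448 (limma adjusted p = 0.0158).

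It was followed by *Slc4a8*, a sodium-driven bicarbonate exchanger (r = -0.697), *Prkaa2*, a catalytic subunit of the energy sensor AMPK (r = -0.688), *Med12l*, a relative of the Mediator subunit *Med12* (r = -0.687), *Lrrc8b*, a subunit of volume-regulated anion channels (r = -0.672), the cyclic nucleotide phosphodiesterase *Pde10a* (r = -0.665), the solute carrier *Slc7a14* (r = -0.658) and the arrestin *Arrb1* (r = -0.656). *Prkaa2* had correlations with *Sirt5* of -0.874 (batch 2) and -0.870 (batch 3), but -0.283 (batch 4) and -0.082 (batch 6). All 8 kept their call with the first principal component in the fit, while with 20 components none of the 16 named genes of either sign did.

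Both groups of 8 were picked by the smallest p of the slope among 2700 named genes, so their correlations describe the genes chosen and do not test them anew. Each of the 16 had a permutation p of 1e-05, or 2.24e-05 after adjustment over the 47 genes tested in this way. That adjustment did not cover the 2700 genes from which they were picked. Without the 2 rats farthest from the *Sirt5* median, r lay between 0.591 and 0.693 for the positive genes and between -0.682 and -0.617 for the negative ones. The sign was the same in all 4 batches for 15 of the 16, the exception being *Slc7a14*, with r = 0.036 in batch 6. The median size of r over the 16 genes was 0.851 (batch 2), 0.792 (batch 3), 0.338 (batch 4) and 0.468 (batch 6). For 7 of them the change of slope with batch had an unadjusted p under 0.05, but the smallest adjusted p was 0.176.

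**Figure D5:**
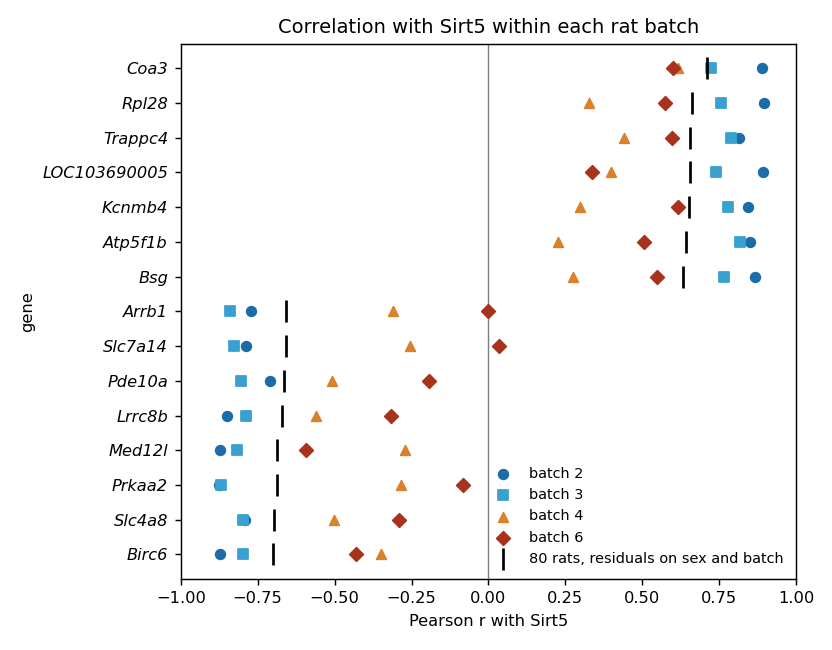
Pearson r with *Sirt5* (x axis) of 15 named genes (y axis) within batches 2, 3, 4 and 6 (coloured marks) and over 80 rats on residuals (black bars). Marks of batches 2 and 3 lie at sizes of r of 0.710 to 0.896, and those of batches 4 and 6 lie nearer to 0 for most genes.

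The pathways in which Sirt5 works were covered only in part, since 3292 of the 17250 genes (19.1%) had a name here. Names were taken from the study's lists of genes with a cis-eQTL, a nearby variant linked to expression. Named genes are thus a selected set. Of 18 enzymes known as Sirt5 substrates 4 were named, of which 2 rose with *Sirt5* and 0 fell (17.3% and 17.9% of all genes), with a median r of 0.285 against -0.003 over all genes. These were *Pkm*, the pyruvate kinase of brain (r = 0.413, limma adjusted p = 0.00154), and *Glud1*, glutamate dehydrogenase (r = 0.346, adjusted p = 0.009). Serine hydroxymethyltransferase *Shmt2* had r = 0.223 (adjusted p = 0.133), and *Uox*, urate oxidase, had r = -0.0056 at a mean log2 value of 2.21. Neither *Pkm* (r = 0.015, adjusted p = 0.974) nor *Glud1* (r = 0.197, adjusted p = 0.393) kept its call with the first principal component in the fit, and there the median r of the 4 enzymes was -0.016.

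Enzymes that make or use the acyl-CoAs behind these lysine marks moved with *Sirt5* in part. Of 13 listed, 7 were named, 3 rose, 0 fell (17.3% and 17.9% of all genes) and the median r was 0.244. *Dlst*, a subunit of the 2-oxoglutarate dehydrogenase complex that makes succinyl-CoA, had r = 0.581 (adjusted p = 6.75e-06). Of the succinyl-CoA ligase subunits, r was 0.530 for *Suclg1* (adjusted p = 1.57e-05), 0.328 for *Suclg2* (adjusted p = 0.0155) and 0.135 for *Sucla2* (adjusted p = 0.39). *Sucla2* was added after its value was seen, and whether those 3 slopes differ from each other was not tested. *Oxct1*, the enzyme by which brain uses ketone bodies, had r = 0.244 (adjusted p = 0.0867).

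In the tricarboxylic acid cycle 6 of 18 genes were named, of which 4 rose and 0 fell with *Sirt5* (17.3% and 17.9% of all genes), with a median r of 0.429. They were *Dlst*, *Suclg1* and *Suclg2*, and *Fh*, fumarate hydratase (r = 0.552, adjusted p = 8.37e-06). With the first principal component in the fit *Dlst* alone of these 4 kept its call (adjusted p = 0.0458), and the median r of the 6 genes was 0.213. *Ppargc1a*, a coactivator of mitochondrial biogenesis and the only named gene of 12 on mitochondrial content, went the other way (r = -0.471, adjusted p = 0.00016), and lost its call with the first principal component in the fit (r = -0.149, adjusted p = 0.564). None of 3 named genes of NAD synthesis and use had a slope on *Sirt5* that passed the test. These were *Nmnat1* (r = -0.021), *Nadsyn1* (r near 0) and *Nnt* (r = -0.014). The other 6 sirtuins had no name in the tables used here and were not analysed.

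Genes grouped by symbol, after the values had been seen, are given as a description. Of 12 named cytosolic ribosomal protein genes 9 rose and 0 fell with *Sirt5* (17.3% and 17.9% of all genes), with a median r of 0.479. Of 18 named subunits of the respiratory chain and ATP synthase 12 rose and 0 fell, with a median r of 0.386. Of 16 named mitochondrial ribosomal protein genes 10 rose and 0 fell, with a median r of 0.372. The shares of all genes stand beside each of the 3 groups. With the fit limited to genes with a mean log2 value of at least 5, the shares were 23.1% and 22.7%. With the first principal component removed the 3 medians were 0.261, 0.124 and 0.153.

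Few cell type markers had a name, and none of them moved with *Sirt5* beyond the test. The interneuron peptide *Vip* had r = 0.158, the astrocyte enzyme *Aldh1l1* r = 0.015, the microglial receptor *P2ry12* r = 0.082, the meningeal proteoglycan *Dcn* r = -0.112 and the hemoglobin gene *Hbb* r = 0.133. The lowest adjusted p among these 5 was 0.296. No listed marker of neurons in general, oligodendrocytes, their precursors or endothelium was named, so the part of cell composition in the values of *Sirt5* was not tested.

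Named genes along the chromosome of *Sirt5* were sparse. Of the nearest 5 on each side in the order of RefSeq protein-coding genes (assembly GRCr8), some lay as many as 51 genes away. With *Sirt5*, 1 of these 10 rose, 2 fell and 7 did not pass the test, beside 17.3% and 17.9% of all genes that rose and fell, so the share called was near that of all genes. *Gfod1*, the next protein-coding gene on one side, fell as *Sirt5* rose (r = -0.499, limma adjusted p = 3.83e-05). *Cd83*, an immune surface protein gene that lies 5 protein-coding genes away on the other side, rose (r = 0.359, adjusted p = 0.00678), and *Bicd2*, a dynein adaptor gene 36 protein-coding genes away on the side of *Cd83*, fell (r = -0.485, adjusted p = 0.000214). The endothelin gene *Edn1*, 5 protein-coding genes away on the side of *Gfod1*, had r = 0.117 (adjusted p = 0.461). None of the 3 kept its call with the first principal component in the fit (adjusted p = 0.0529 for *Gfod1*, 0.52 for *Cd83* and 0.163 for *Bicd2*).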

How the data were processed

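Per the labels, polyA RNA of the PL was sequenced from HS rats, and sex, rat batch and removal of a sample were read from them. The authors trimmed reads with cutadapt, estimated read counts per Ensembl gene with RSEM, made an upper quartile adjustment in DESeq2, added a pseudocount of 1 and deposited the result on the log2 scale. Versions are not given in the sources used here. After the log had been undone, all values were whole within a tolerance that grew with the count. For high counts such as those of *Sirt5* this check could not fail. The adjusted totals, 16957388 to 20613398 per library, are set by the adjustment and are not sequencing depth, which was not recovered here, and because the counts were adjusted no count test was run.

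All fits used limma 3.58.1 in R 4.3.3 (eBayes with a variance trend) over all genes of the table, with Benjamini-Hochberg adjustment. Batches were tested with sex as covariate, sex with batch as factor, and slopes on *Sirt5* with both. The rat of batch 5 had its own coefficient. The scripts were tested on simulated data. Correlations used residuals on sex and batch, with 100000 permutations within batches and adjustment over 47 genes (Python 3.11.15, numpy 2.4.6, scipy 1.17.1, pandas 2.3.3). Relatedness of the rats was not modelled.

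The gene, lists and tests were chosen with earlier results of these data known. The genes tested included the 8 with the smallest p of each slope sign. Those were taken among genes with a name, a mean log2 value of at least 5 and values unlike any other gene's. The others were the 5 nearest named genes on each side of *Sirt5* and all named members of 15 lists, 21 of 114 genes. Not every list gene is reported here by name. Of the 16 genes chosen by slope, 1 is counted but not reported here by name. Names came from supplementary tables of the study that list genes with a cis-eQTL, and those tables' eQTL values were not used. Covariates, scaling, pseudocount, low-value filter, transformation and single rats were varied. Genotypes were not analysed here.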

Additional observations from a re-analysis of the deposited data

How the results depend on the processing

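The differences of *Sirt5* between batches kept their direction and call without covariates, with median-of-ratios scaling and with a pseudocount of 16. They also did with the filter on low values, the inverse normal transformation, no variance trend and without the rat of batch 5. The same held with batch-wise weights (chosen after seeing the data). The weights, estimated over all genes, lay between 0.952 and 1.08 and could not take up the unequal spread of *Sirt5* itself. With 20 principal components added, computed from values that hold the batch differences, the F-test had an adjusted p of 0.985, and the log2 differences were -0.0065 (batch 4 from 2), 0.032 (6 from 2), 0.0038 (4 from 3) and 0.042 (6 from 3), none of them called, while the sex difference turned to 0.12, also not called. The number of genes with a slope on *Sirt5* of either sign, 6074 as reported, was 9747 without sex and batch, 274 with 1 component (chosen after seeing the data), 185 with 5 (0.336% of genes positive and 0.736% negative) and 0 with 20 (limma, 1179 at an unadjusted p under 0.05). With 20 components all 16 named genes lost their call and kept their sign. Leaving out each of the 80 rats in turn changed no call of the batch and sex tests of *Sirt5*. The adjusted p of the limma F-test ran from 3.96e-09 to 4.53e-07. The number of slopes called ran from 5348 to 6221, and calls of single genes were not compared. No paired analysis was possible because each rat gave 1 PL library, and replicate numbers only count rats within a batch. Values rest on adjusted counts, names on 19.1% of genes, and rat batch cannot be told apart from what else the rats of a batch shared.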
